A study of Triticum aestivum with 15 samples.

Results

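The first leaf of bread wheat 1 day after iron was withdrawn was set against the first leaf on the day of withdrawal. The 6 libraries of this comparison were chosen by their sample labels, 3 for the first leaf on day 1 and 3 for the first leaf on day 0, out of 15 libraries in all. The plants were wild-type bread wheat (Triticum aestivum) of the cultivar Fielder, grown in hydroponic boxes. The day 1 leaves came from plants that had 12 days of complete solution with 50 µM iron, supplied as NaFe3+EDTA, and then 1 day of the same solution with 0 µM iron. The day 0 leaves came from plants with the 12 days of complete solution only. The other 9 libraries serve here to follow the same genes later: the third leaf on day 7 without iron, leaves 3, 4 and 5 on day 11, and the roots on day 11, with 3 libraries each. Every group carries the same 3 plant numbers in its labels, and the plants are called 1, 2 and 3. Day 1 differs from day 0 in iron supply and in plant age together, and no iron-fed library of day 1 entered the comparison, so the effects of iron and of time cannot be told apart. If the shared plant numbers mean that the same plants were sampled on both days, an earlier sampling is confounded with day 1 as well.

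Iron is a cofactor of the photosynthetic electron chain, of the enzymes that make chlorophyll and of iron-sulphur and haem proteins, and most of the iron of a leaf cell sits in its chloroplasts. Grasses take iron up by secreting phytosiderophores, chelators of the mugineic acid family, and by importing the iron complex they form. Iron already stored in an old leaf moves slowly to younger leaves, which is why the youngest leaves turn yellow first when supply stops. Bread wheat is hexaploid, with 3 subgenomes named A, B and D, and its 21 chromosomes form 7 homoeologous groups in which the A, B and D members carry corresponding genes.

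Counts per gene were deposited under identifiers that state the chromosome and the confidence of the gene model but no function. Of 269207 identifiers, 0 matched the table of gene names used here, so genes are given by chromosome and, for 4 of them, by identifier, with no role. For the same reason the tissue labels could not be checked against marker genes. The day 1 libraries held 20145650, 22416216 and 23860084 counts in plants 1, 2 and 3, and the day 0 libraries held 19845743, 19416756 and 15434838. The day 0 libraries were the more variable: the median SD of a gene between plants was 0.253 on day 1 and 0.358 on day 0 (log2 CPM, n = 3 each; CPM is the count of a gene scaled to library depth in the usual way, with TMM factors for library composition). Between any pair of plants Pearson's r over all genes was 0.947 to 0.950 on day 1 and 0.882 to 0.904 on day 0, a description since genes are no independent replicates. In the day 7 leaf it was 0.866 to 0.941.

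After 1 day without iron, a small share of the genes of the first leaf passed the test. On day 1, 477 of the 62841 genes tested stood above their day 0 level (0.759%) and 336 below it (0.535%), together 1.29% (quasi-likelihood test of edgeR at a false discovery rate of 0.05 by Benjamini and Hochberg). At an unadjusted p under 0.05 there were 11615 genes, so the called genes are those that this fit could tell apart and not a count of all that changed. Most of the changes were moderate. The median log2 fold change was 1.48 for the higher genes, -1.29 for the lower genes and -0.01 for all genes tested. By at least 2-fold, 379 genes were higher and 238 lower, and by at least 4-fold 156 were higher and 79 lower. By at least 16-fold, 57 were higher and 17 lower when a gene at 0 counts on 1 day is taken at its lower bound. In each of the 813 called genes the 3 libraries of day 1 did not overlap with the 3 of day 0. Over all genes tested, 7180 (11.4%) had all day 1 libraries above all day 0 libraries and 6656 (10.6%) had them below, so most genes whose libraries separated did not pass the adjusted test. The adjusted p of the called genes lay close to the threshold, with a median of 0.031 for the higher genes and 0.035 for the lower ones and a smallest value of 0.003 in each direction.

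The size of this list depended on the fit. With the plants as a replicate block 195 genes were higher and 129 lower, and 292 of these 324 were among the 813. DESeq2 called 2098 higher and 2515 lower genes, including all 813, and its share of higher genes was 45.5% against 58.7% by edgeR. The fit on only the 6 libraries of days 0 and 1 called 557 genes, 322 of them among the 813. Limma-voom called 826, with 571 among the 813, while RLE size factors kept 804 of the 813 and a robust fit 800. No gene was called by edgeR without plant 1 (7828 at an unadjusted p under 0.05) or without plant 2 (8002 unadjusted), and 115 were called without plant 3. Without the day 0 library of plant 1 alone, the number was 807, and 440 of them belonged to the 813. Leaving out the day 0 library of plant 2 gave 1500 called genes and that of plant 3 gave 398, while leaving out a day 1 library gave 188 to 214. Libraries outside the comparison, which enter the filter, the scaling and the shared estimate of the spread, also moved the count, and the part of each was not tested: 517 and 1543 genes were called without the day 7 libraries of plants 2 and 3, and 312 to 404 without 1 of the day 11 leaf libraries. A core of 164 genes, 102 higher and 62 lower, was called in the main fit and in the 9 alternatives that changed the tool, filter, scaling, block or set of groups.

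Calls were more frequent among well-expressed genes. Levels here are means over the 6 first-leaf libraries and are not corrected for gene length. Of genes under 1 CPM, 0.456% were higher and 0.228% lower on day 1, and from 1 to 5 CPM these shares were 0.544% and 0.310%. From 5 to 20 CPM, 0.985% were higher and 0.914% lower. From 20 to 100 CPM the shares were 1.39% and 0.89%, and at 100 CPM or more 1.44% and 0.982%. The share called was larger at 20 CPM or more than under 5 CPM in all 23 fits that called any gene. Fewer counts lie behind a low level, and what part this has in the lower share was not tested. From the lowest to the highest of these levels, the median fitted log2 fold change of the higher genes was 6.69, 1.76, 1.18, 1.20 and 1.93. That of the lower genes was -6.55, -1.66, -1.17, -1.06 and -1.01. The values under 1 CPM rest on groups at or near 0 counts.

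**Figure D1:**
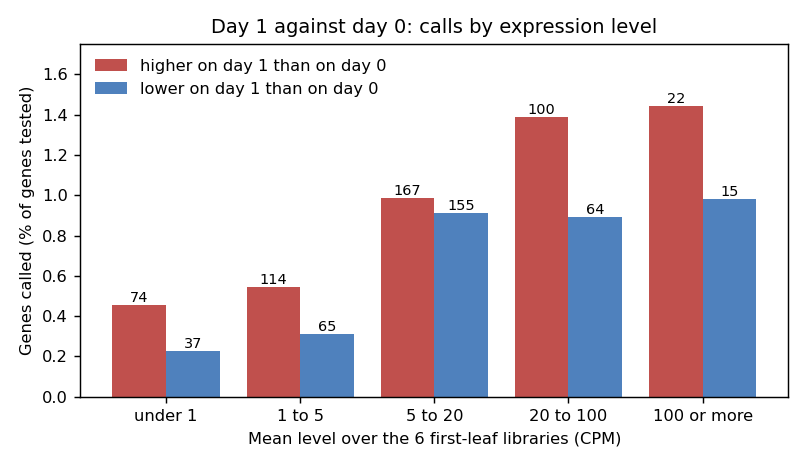
Share of the genes tested that were called higher (red) or lower (blue) on day 1 than on day 0, by mean level over the 6 first-leaf libraries, with the number of genes above each bar. The share of higher genes runs from 0.456% under 1 CPM to 1.44% at 100 CPM or more.

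A part of the list consisted of genes read at 1 day and not at the other. Of the 477 higher genes, 73 (15.3%) had 0 counts in all 3 day 0 libraries, and of the 336 lower genes 31 (9.23%) had 0 counts in all 3 day 1 libraries. Over all genes tested, 4.17% were at 0 on day 1 and 3.21% at 0 on day 0. A group at 0 allows a level of up to 0.0533 CPM on day 1 and 0.0608 CPM on day 0 (3 counts over the group, counting error only). Against this floor the 73 genes were at least 4.19-fold to at least 175-fold higher, with a median bound of 14.1, and the 31 genes at least 4.79-fold to at least 45.5-fold lower, with a median bound of 12.8. These were faintly expressed genes, with a median of 0.919 CPM on day 1 among the 73 and 0.732 CPM on day 0 among the 31 (CPM scaled over all 15 libraries). Most were read again in the later samples. The filter on low counts used all 12 leaf libraries, so a faint gene could enter the test through its counts on days 7 and 11. Being read in later leaves was thus in part a condition of entry, while roots had no part in the filter. Of the 73, 5 had no count in the day 7 leaf, 3 none in the day 11 leaves and 12 none in roots. Of the 31, 1 had no count on day 7, 0 had none in day 11 leaves and 5 none in roots. Over all genes tested 1.18% had no count on day 7, 1.32% none in day 11 leaves and 8.68% none in roots.

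Among abundant transcripts, at 100 CPM or more, 22 of the 1527 genes tested were higher (1.44%) and 15 lower (0.982%). All of the called ones were high-confidence models. The 22 higher genes lay on all 7 chromosome groups, with 6 on group 1, 5 on group 5 and 4 on group 3, and their log2 fold changes ran from 0.84 to 6.91. Their median level on day 1 was 301 CPM, against 80.8 CPM on day 0, and it stood at 93.7 CPM in the day 7 leaf, 73.2 CPM in the day 11 leaves and 1.16 CPM in roots. The 15 lower genes had 6 members on group 4 and 4 on group 3. How all genes at this level are spread over the groups was not worked out, so these counts single out no group. The decreases of the 15 lower genes ran from 0.91 to 2.60 on the log2 scale. Their median on day 1 was 94.4 CPM, against 212 CPM on day 0, then 124 CPM on day 7, 34.2 CPM on day 11 and 5.11 CPM in roots. A few genes carried much of the shift in counts. Of the summed difference in CPM over each list, 1 gene on chromosome 1D made up 20.1% among the higher genes and 1 gene on chromosome 3A made up 22.6% among the lower genes. The 1D gene averaged 2950 CPM ± 482 on day 1 and 270 CPM ± 92.9 on day 0 (SD, n = 3 each; edgeR log2 fold change 3.45, SE 0.56, adjusted p = 0.02). The 3A gene averaged 1670 CPM ± 225 on day 1 and 3310 CPM ± 391 on day 0 (SD, n = 3 each; log2 fold change -0.99, SE 0.21, with an adjusted p of 0.046 by edgeR). Both are singled out here after their values were seen. Over 24 alternatives the call of the 1D gene ended in 6, each of which left out a plant or a day 1 library. That of the 3A gene ended in 17, the replicate block among them (adjusted p = 0.085 by edgeR), with adjusted p of up to 0.27.

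As a whole the higher genes took 1.54%, 1.59% and 1.74% of the library's counts in plants 1, 2 and 3 on day 1, against 0.563%, 0.556% and 0.467% on day 0. The lower genes took 0.491%, 0.530% and 0.521% on day 1, against 1.21%, 1.14% and 1.24% on day 0. These shares follow from the way the genes were chosen and describe how much messenger RNA is involved. In leaf tissue a change in RNA per cell and a change in the number of cells of a type cannot be told apart.

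The largest changes by a set rule are shown by 4 genes, the 2 largest increases and the 2 largest decreases among called high-confidence genes at 20 CPM or more with all plants moving the same way and no overlap between the days (120 higher and 78 lower genes met these conditions). Both increases lie on chromosome 1B and follow each other among the genes tested there. TraesCS1B02G367500 had 271, 253 and 370 CPM in plants 1, 2 and 3 on day 1, against 2.65, 4.03 and 0.61 CPM on day 0. All day 1 libraries stood far above the day 0 libraries, and plant 3 was the highest of day 1 and the lowest of day 0. Its day 1 mean was 298 CPM ± 62.9, against 2.43 CPM ± 1.72 on day 0 (SD, n = 3 each; log2 fold change 6.91, SE 1.18, with an adjusted p of 0.024 by edgeR, and of 0.057 with the replicate block). TraesCS1B02G367800 had 49.3, 33.5 and 56.0 CPM on day 1, against 0.848, 0.691 and 0 CPM on day 0. Plant 3 was again the highest of day 1 and, with no count, the lowest of day 0 (log2 fold change 6.38, SE 1.11, with an adjusted p of 0.026 by edgeR, and of 0.059 with the replicate block). The sources used here do not give how reads of near-identical neighbours were shared, so the counts of this pair are uncertain for each gene on its own. Over 24 alternatives the call ended in 9 for each of these genes, and their log2 fold changes ran from 6.31 to 7.57 for TraesCS1B02G367500 and from 5.75 to 7.04 for TraesCS1B02G367800. The 9 included the replicate block for both genes and limma-voom for TraesCS1B02G367800 (adjusted p = 0.13 by limma-voom).

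The 2 genes with the largest decreases lie on chromosomes 5B and 7A. TraesCS5B02G268300 had 5.76, 8.46 and 6.32 CPM in plants 1, 2 and 3 on day 1, against 36.9, 54.7 and 113 CPM on day 0. The day 1 libraries lay close together and those of day 0 were spread, with plant 3 highest. Its day 1 mean was 6.84 CPM ± 1.42, against 68.2 CPM ± 39.7 on day 0 (SD, n = 3 each; edgeR log2 fold change -3.31, SE 0.45, adjusted p = 0.011). TraesCS7A02G427100 had 5.40, 6.60 and 7.69 CPM on day 1, against 43.9, 21.3 and 91.2 CPM on day 0. Here too the spread was on day 0, and its highest library was that of plant 3 (edgeR log2 fold change -2.98, SE 0.44, adjusted p = 0.015). The calls of these genes ended in 5 and 6 of 24 alternatives, each of which left out a plant or a day 1 library.

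**Figure D2:**
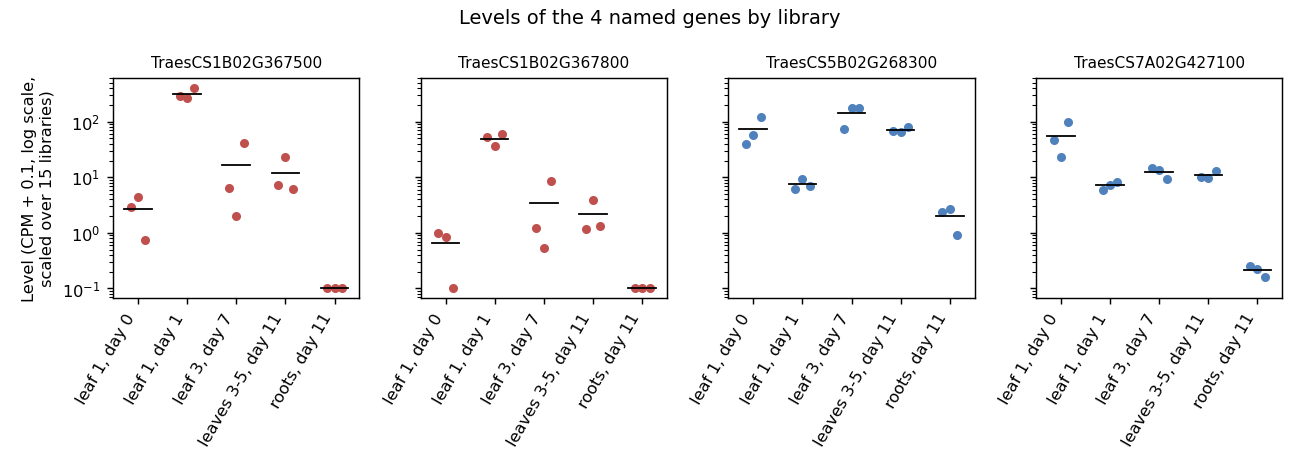
Level of the 4 named genes in each of the 15 libraries (points, 3 per group) with the group mean (line), as CPM scaled over all libraries plus 0.1 on a log scale. Both genes on 1B stand highest in the first leaf on day 1 and at 0 counts in roots, and both lower genes stand lower on day 1 than on day 0.

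Their later levels differed. TraesCS1B02G367500 averaged 2.61 CPM ± 1.85 on day 0, 320 CPM ± 67.4 on day 1, 16.5 CPM ± 21.6 in the day 7 leaf and 11.9 CPM ± 9.31 in the day 11 leaves (SD, n = 3 each, scaled over all 15 libraries), and had 0 counts in all roots, which allows up to 0.0327 CPM. On day 7 plant 3 had 41.3 CPM against 6.35 and 1.92 CPM in plants 1 and 2. TraesCS1B02G367800 followed the same course at a lower level, with 0.551, 49.6, 3.38 and 2.04 CPM on days 0, 1, 7 and 11 and 0 counts in all roots. TraesCS5B02G268300 stood at 73.1 CPM ± 42.5 on day 0, 7.34 CPM ± 1.52 on day 1, 142 CPM ± 60.2 on day 7 and 71.8 CPM ± 7.49 on day 11: its low level was seen on day 1 and not in the later, younger leaves. TraesCS7A02G427100 stood at 55.9 CPM ± 38.2, 7.05 CPM ± 1.22, 12.3 CPM ± 2.81 and 10.9 CPM ± 1.93 on days 0, 1, 7 and 11. The last 2 genes were lower in roots than in day 11 leaves, with 1.88 CPM ± 0.941 (log2 fold change -5.20, SE 0.35, with an adjusted p of 9.1e-06 by edgeR) and 0.112 CPM ± 0.0474 (log2 fold change -6.51, SE 0.29, with an adjusted p of 1.3e-06 by edgeR). None of the 4 genes was called between the day 11 and day 7 leaves (edgeR adjusted p = 0.81 and 0.68 for the genes on 1B, 0.099 for the gene on 5B and 0.75 for that on 7A).

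The calls came from every chromosome. By homoeologous group, the share of genes called higher was 0.898% on group 1, 0.653% on group 2, 0.841% on group 3, 0.940% on group 4, 0.884% on group 5, 0.504% on group 6 and 0.558% on group 7. The share called lower was 0.541%, 0.633%, 0.550%, 0.483%, 0.502%, 0.438% and 0.615% in the same order. Group 4 thus had 74 higher and 38 lower genes and group 7 had 49 higher and 54 lower. Within a group, on 4A, 4B and 4D 0.939%, 0.935% and 0.947% of the genes were higher, and on 7A, 7B and 7D 0.482%, 0.599% and 0.593%. Single chromosomes ranged from 0.367% higher on 6B to 1.06% on 1B, and from 0.395% lower on 3B to 0.795% on 2D. For the 23 fits with any call, the number called in each group was set over the genes tested in the main fit. By this measure group 4 had the highest share of higher genes in 15 and group 6 the lowest in 15. Group 7 had the highest share of lower genes in 16. The fits share most of their libraries and are no independent repeats. The counts by group are given without a test of the difference between groups. With the replicate block group 1 had 18 higher genes, group 4 had 36 and group 5 had 43. The 823 genes with no assigned chromosome held 8 called genes, all of them higher.

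**Figure D3:**
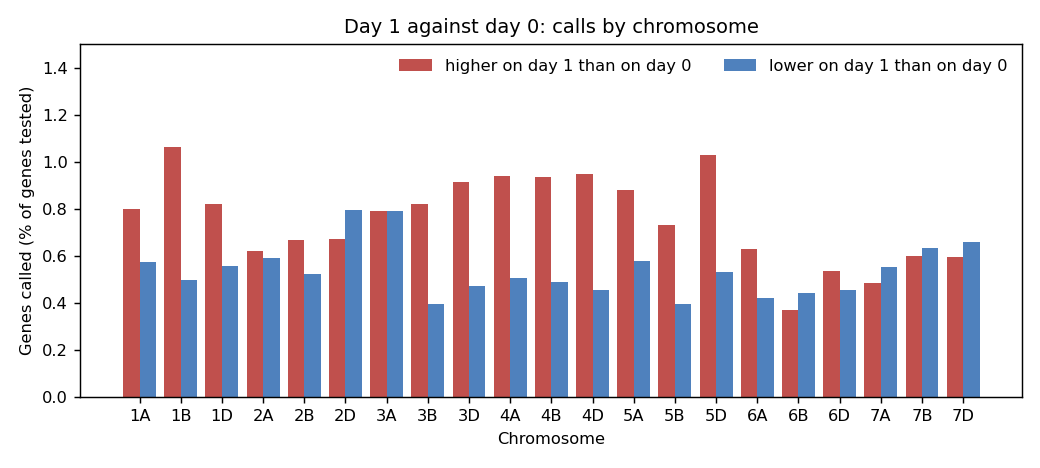
Share of the genes tested on each of the 21 chromosomes that were called higher (red) or lower (blue) on day 1 than on day 0. Higher genes outnumber lower genes on all chromosomes of groups 1, 4 and 5, while 7A, 7B and 7D each held slightly more lower than higher genes.

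Among the genes that met the conditions for naming, the 20 largest increases numbered 8, 0, 5, 1, 5, 1 and 0 on groups 1 to 7, beside 22, 10, 21, 25, 24, 7 and 10 of all 120 such higher genes. The 20 largest decreases numbered 0, 2, 4, 3, 4, 1 and 6, beside 7, 9, 17, 13, 10, 6 and 16 of all 78 such lower genes. Differences between these counts were not tested. The increases had a day 1 median of 120 CPM, against 17.9 CPM on day 0, and stood at 32.3 CPM on day 7, 68.1 CPM on day 11 and 0.591 CPM in roots. The decreases had a day 1 median of 18.0 CPM, against 82.9 CPM on day 0, and stood at 25.6 CPM on day 7, 11.3 CPM on day 11 and 2.26 CPM in roots. Some called genes followed each other by identifier among the genes tested, and genes that were not tested can lie between them. Among 50856 pairs of high-confidence genes whose identifiers follow each other among the genes tested on a chromosome, both were higher in 11 and both lower in 6. The 21 higher genes in such runs were 5.02% of the placed high-confidence higher genes, and the 12 lower ones 3.88% of the lower genes. Over all high-confidence genes tested, 0.822% were higher and 0.601% lower. How many runs these rates alone would give was not worked out. The only run of 3 was on chromosome 1D, with levels of 2.99 to 391 CPM and log2 fold changes of 1.07 to 2.98. A further pair on 1D had means of 462 and 1610 CPM over the 6 first-leaf libraries, with log2 fold changes of 4.37 and 3.45. The gene at 1610 CPM is the 1D gene described above. Of the 10 runs of higher genes 5 lay on 1B and 1D, picked out after the runs were seen. Chromosome 1B held 30 of the 477 higher genes and 2818 of the 62841 genes tested, and 1D held 22 and 2688.

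In the later leaves both lists lay, by their medians, between their day 0 and day 1 levels. The genes were chosen by their levels on these 2 days. The gap between the days follows from that choice, and later medians between them can follow from it too. The median level over the 477 higher genes was 4.36 CPM ± 0.310 on day 0, 11.9 CPM ± 0.446 on day 1, 7.49 CPM ± 0.967 on day 7 and 8.66 CPM ± 0.320 on day 11, with 3.64 CPM ± 0.216 in roots (SD over 3 libraries, scaled over all 15). For the 336 lower genes it was 13.1 CPM ± 0.928, 5.43 CPM ± 0.154, 10.5 CPM ± 0.474, 7.92 CPM ± 0.686 and 4.33 CPM ± 0.154. These values run from day 0 to day 11 and then to roots. Over all genes tested the median ran from 3.44 to 3.85 CPM in leaves and was 2.75 CPM in roots. The higher list took 0.965% ± 0.170 of the raw library counts on day 7 and 2.46% ± 0.344 on day 11 (SD, n = 3 each). On day 11 this raw share was above the 1.63% ± 0.105 of day 1, but unlike the medians it carries no TMM factors. In the fit of the 12 leaf libraries these factors were 0.819 to 0.884 on day 1 and 1.24 to 1.28 on day 11. Dividing by them raises the share of day 1 and lowers that of day 11. The raw shares and the medians are thus not on the same scale.

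**Figure D4:**
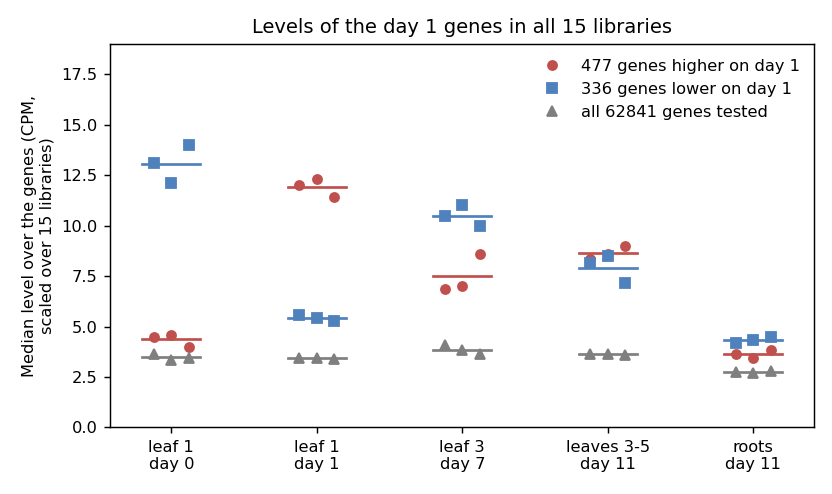
Median level of the 477 higher genes (red circles), the 336 lower genes (blue squares) and all 62841 genes tested (grey triangles) in each of the 15 libraries, in CPM scaled over all libraries, with lines at group means. The lists cross between day 0 and day 1, which follows from how the genes were chosen. They lie between those values on day 7 and come close to each other on day 11.

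Gene by gene, each later mean was placed on the day 1 side or the day 0 side of the midpoint between its day 0 and day 1 means (log2 of CPM + 0.1). Of the 477 higher genes, 222 (46.5%) were on the day 1 side on both day 7 and day 11, 163 (34.2%) on the day 0 side on both, 74 (15.5%) on the day 1 side on day 11 only and 18 (3.77%) on day 7 only. Of the 29203 uncalled genes with a positive fold change 38.4% were on the day 1 side at both times and 38.2% on the day 0 side. The higher genes on the day 1 side at both times had a median of 3.10 CPM over the 6 first-leaf libraries, against 17.8 CPM for those on the day 0 side at both times. Of the 336 lower genes, 118 (35.1%) were on the day 1 side at both times, with a median of 17.4 CPM, and 174 (51.8%) on the day 0 side at both, with a median of 5.48 CPM. Of the 31791 uncalled genes with a negative fold change these shares were 31.1% and 49.7%. Taken by day, 50.3% of the higher genes were on the day 1 side on day 7, beside 48.3% of the uncalled genes, and 62.1% on day 11, beside 51.8%. For the lower genes it was 39.6% on day 7, beside 39.3%, and 43.8% on day 11, beside 42.0%, close to the uncalled genes at both times. In roots 42.8% of the higher and 62.2% of the lower genes were on the day 1 side, beside 49.1% and 49.7% of the uncalled genes. Faint genes could also enter the test through the day 7 and day 11 leaves, which bears on the positions of genes at low levels. These positions use the day 0 and day 1 libraries that chose the genes and are given as a description.

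A comparison that used no library of day 0 or day 1 was that of the day 11 leaves with the day 7 leaf, fitted on their 6 libraries alone. Plant age and leaf position differ in it as well as time without iron. The day 7 and day 11 leaf libraries also entered the filter, the scaling and the shared estimate of the spread behind the day 1 calls. The 2 comparisons are therefore not independent. Of the 463 higher genes tested between day 11 and day 7, 158 (34.1%) were higher on day 11 than on day 7 and 38 (8.21%) lower (edgeR adjusted p under 0.05). Of all 59578 genes tested in both comparisons 12.8% were higher and 11.7% lower. Of the lower genes, 115 of 335 (34.3%) were lower on day 11 than on day 7 and 35 (10.4%) higher. The median log2 fold change was 0.40 for the higher genes, -0.25 for the lower genes and 0.01 for all genes. By level, 38.7% of the higher genes from 1 to 5 CPM were higher on day 11, beside 12.3% of all genes of that level, from 5 to 20 CPM 35.8% beside 15.1%, and from 20 to 100 CPM 29.0% beside 10.3%. Of the lower genes under 1 CPM 3 were lower and 4 higher on day 11, and from 1 to 5 CPM 12 were lower (18.5%, beside 7.14% of all genes) and 9 higher (13.8%, beside 12.3%), with a median log2 fold change of 0.05. At higher levels more were lower than higher: 35.5% were lower on day 11 from 5 to 20 CPM, beside 14.2% of all genes of that level, and 48.4% from 20 to 100 CPM, beside 29.3%. At 100 CPM or more 14 of 15 lower genes were lower on day 11, beside 44.6% of all. Without plant 2 edgeR called no gene between day 11 and day 7 (14222 at an unadjusted p under 0.05), and without plant 1 the share of the higher genes called higher was 6.90% beside 2.19% of all genes. Lists from a fit on only the 6 libraries of days 0 and 1 gave other shares. Its higher genes were higher on day 11 in 22.5% and lower in 10.5%, and its lower genes lower in 43.1% and higher in 7.5%.

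Roots were lower than leaves in both lists. Of 466 higher genes tested between the roots and the leaves of day 11, 270 (57.9%) were lower in roots and 99 (21.2%) higher. Of 327 lower genes, 180 (55.0%) were lower in roots and 79 (24.2%) higher. Over all 58712 genes tested in both comparisons 37.8% were lower in roots and 27.3% higher (edgeR adjusted p under 0.05). The share lower in roots went with level in all genes. From 20 to 100 CPM 79.0% of the higher genes and 70.3% of the lower genes were lower in roots, beside 59.2% of all genes, and from 1 to 5 CPM 45.0% and 41.9%, beside 29.9%. The median log2 fold change of roots over leaves was -0.90 for the higher genes, -0.83 for the lower genes and -0.15 for all. In roots 49 of the 477 higher genes (10.3%) and 36 of the 336 lower genes (10.7%) had 0 counts in all 3 libraries, beside 8.68% of all genes tested.

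**Figure D5:**
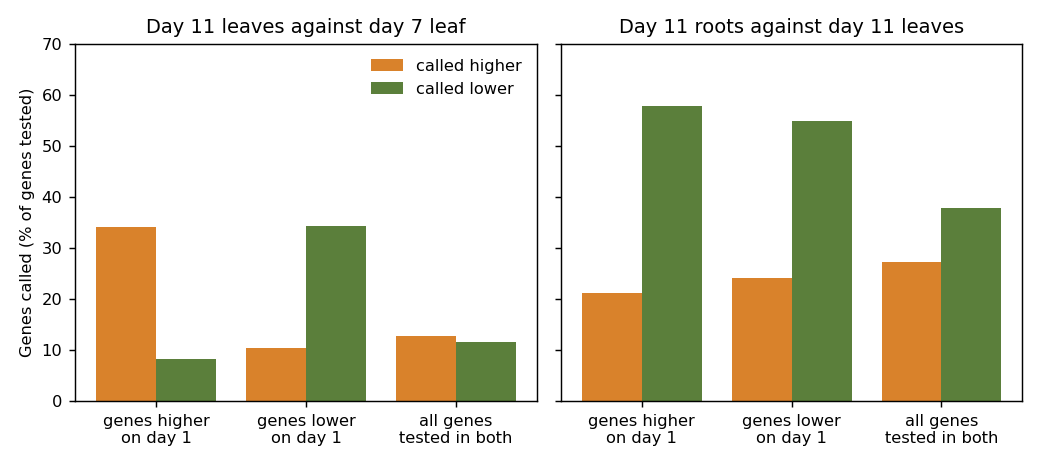
Share of genes called higher (orange) or lower (green) between day 11 leaves and the day 7 leaf (left) and between roots and leaves of day 11 (right), for the genes higher on day 1, the genes lower on day 1 and all genes tested in both comparisons. On the left 34.1% of the higher genes were higher and 34.3% of the lower genes lower, and on the right 57.9% and 55.0% of the lists were lower in roots, beside 37.8% of all genes.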

How the data were processed

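Poly(A) RNA was sequenced, per the labels with a stranded kit, and the authors deposited the raw counts of all 15 libraries as 1 table of genes. Per the submitters' processing notes, quality control used FastQC 0.74 and MultiQC 1.11. The same notes list featureCounts 2.0.3, StringTie 2.2.3, HISAT2 2.2.1 and Trim Galore 0.6.7. The sources used here do not give the genome build, the strand setting or the handling of reads that map to several places. For this reason a single gene's count is uncertain where it has close A, B or D copies, duplicated neighbours or an overlapping or antisense gene. Columns without a sample numbered 0. Chromosome and confidence were read from the identifier, whose number runs along the chromosome.

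The test on counts was glmQLFit with glmQLFTest in edgeR 4.0.16 (R 4.3.3), after filterByExpr and TMM scaling, with the 12 leaf libraries in 1 fit for day 1 against day 0 and 6 libraries for each later comparison. limma 3.58.1 (voom) and DESeq2 1.42.0 were alternatives. The script was tested on simulated data, which checks the code and does not bear on how sure the calls in these data are. SE is the log2 fold change over the square root of F. Library totals ran from 15434838 to 25552816. A p-value sets a difference between groups against the spread between libraries, which for day 1 was estimated from all 12 leaf libraries. An exact permutation test of 3 against 3 cannot go below p = 0.1, so shares and medians carry no p. The members, classes and lists were chosen with earlier results of these data known. Genes were named by the rule in the report: the 2 largest increases and decreases among called high-confidence genes at a mean level of at least 20 CPM, the same direction in all plants and no overlap. Genes singled out beyond it are given by chromosome only.

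Per the labels the same 3 plants carry the replicate numbers in every group. The main fit has no term for the plant, and the pairing enters only as the replicate block, an alternative, and when genes are chosen for naming by their direction in all plants. Deviations from the group mean correlated between day 1 and day 0 libraries of the same plant at 0.071, 0.117 and -0.009, and of different plants at -0.141 to 0.068, so that the data themselves show little pairing.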

Additional observations from a re-analysis of the deposited data

How the results depend on the processing

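The counts of called genes moved by over 1.5 times under several alternatives, and the cause was not tested. Higher and lower genes numbered 2098 and 2515 by DESeq2, 823 and 738 with all 15 libraries in the fit, and 195 and 129 with the plants as a replicate block (paired). With only the 6 libraries of days 0 and 1 there were 165 lower genes (392 higher, 70.4% of those called). Leaving out a plant or a library gave 0 to 1000 higher and 0 to 879 lower genes. RLE size factors, a robust fit, limma-voom and both other filters on low counts stayed within 1.5 times, with 701 to 889 called genes. Of the 234 counts by chromosome group and level under alternatives that left out no library, 140 stayed within 1.5 times.

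For day 11 against day 7, leaving out a plant gave 0% to 34.3% of the higher genes called higher, 0% to 6.44% called lower, 0% to 8.04% of the lower genes called higher and 0% to 30.1% called lower. The lower ends are from the fit without plant 2 and the upper ends from the fit without plant 3. The number of genes called in that comparison was 0 without plant 2, 2786 without plant 1, 14546 without plant 3 and 14641 with all plants. With the higher genes of the 6-library fit the share called higher was 22.5%. The shares in roots stayed within 1.5 times in every alternative run. The block moved no share of either later comparison by over 1.5 times. Low counts limit genes under 1 CPM most.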
